A study of Mus musculus with 294 samples.

Results

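The 9 genes described here are Acta2 and 8 others whose transcript levels followed it across single neural crest cells of the embryonic mouse heart: Tagln, Myl9, Tpm1, Tpm2, Actn1, Myl12a, Pls3 and Tm4sf1. They are 9 of the 15124 genes in the deposited count table, and all 9 had reads. The 8 partners were chosen by their measured correlation with Acta2 in these same cells, so that correlation is a description here and supports nothing. The study captured single cells on Fluidigm C1 microfluidic chips and sequenced their RNA. The cells came from the region of the aorticopulmonary septum, which divides the outflow tract, in mice carrying the Wnt1-Cre driver and the R26-EYFP reporter, taken at E11.5 or E12.5, or later at E14.5 or E17.5. All cells were EYFP-positive by sorting, had the same genotype, have no treatment named and form 1 group, since no label gives the stage, animal or capture chip of a cell. The Wnt1-driven Cre marks descendants of cells that once expressed Wnt1, so the sort selects a lineage and not a cell type. Each cell's name has 1 of 7 digits after its opening letter that the labels leave unexplained. Cells with the same leading digit are called a name series here; each held 34 to 58 cells, and none is a group of the study. With 1 group and no animal named there was no test between groups, and intervals are exact 95% binomial intervals or order-statistic intervals that cover counting error only.

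Smooth muscle contracts when myosin II pulls on actin filaments, and most of these genes build or regulate that machinery. Acta2 encodes smooth muscle alpha-actin, the filament itself. Tpm1 and Tpm2 encode tropomyosins that lie along the filament, and Tagln encodes transgelin, an actin-binding protein of smooth muscle. Myl9 and Myl12a encode regulatory light chains of myosin II, whose phosphorylation switches the motor on. Actn1 encodes alpha-actinin and Pls3 encodes plastin, which both crosslink filaments, and Tm4sf1 encodes a membrane protein of the L6 family. In the outflow tract, cardiac neural crest cells give rise to the smooth muscle of the great arteries and to mesenchyme of the septum, and Acta2 is a common marker of the former. Serum response factor (SRF) and its cofactors are known to drive many contractile genes through the CArG box.

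Because these genes move together across cells, the stretch before each gene's start was read from RefSeq on GRCm38.p6, and 8 of the 9 genes had an entry. The CArG box was searched on both strands in the 250 bases before each start, together with a CArG-like form that allows 1 other base in its 6-base centre. The MCAT motif, CATTCC or its reverse complement GGAATG, was searched in the same windows. The box was found in 1.47% of all 32851 promoter windows of this length, the box or its CArG-like form in 8.59%, and MCAT in 12.6%. Myl9 is shown because its window alone held the full box, and the 2 sites of Acta2 because it is the anchor gene. Each is read 5′ to 3′ on the gene's strand, and capitals mark the matches, none of which overlapped another.
Myl9 (chr2:156775214-156775419, plus strand): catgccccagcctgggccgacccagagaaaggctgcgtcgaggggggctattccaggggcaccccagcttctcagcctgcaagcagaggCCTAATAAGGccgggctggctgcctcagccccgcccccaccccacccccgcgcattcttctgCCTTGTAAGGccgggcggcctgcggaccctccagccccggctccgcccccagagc
Acta2 site 1 (chr19:34255438-34255467, minus strand): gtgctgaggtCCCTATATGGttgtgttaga
Acta2 site 2 (chr19:34255388-34255417, minus strand): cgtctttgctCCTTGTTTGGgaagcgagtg
Myl9 held the box CCTAATAAGG at positions -161 to -152, counted from its start, and the CArG-like CCTTGTAAGG at -99 to -90. Acta2 held the CArG-like forms CCCTATATGG at -84 to -75 (site 1) and CCTTGTTTGG at -34 to -25 (site 2), and an MCAT match further upstream. Myl12a held the CArG-like CCCTAAAAGG at -18 to -9. Tpm1 held 1 MCAT match, and the windows of Pls3 held 1 or 2. The windows of Tpm2, Actn1 and Tm4sf1 held no match, which says only that these letters are not in these windows. GENCODE M21 starts Acta2 further upstream than RefSeq does, and places both of its sites in the untranslated part of its first exon. The Myl9 stretch ends where its first GENCODE exon begins. A match is a description and not evidence of binding.

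Depth and cell identity set limits on the values below. Totals ranged from 34046 to 3033857 reads per cell, with a median of 1204543 (95% interval 1039833 to 1318682). The cells of name series 1 had reads for a median of 7718 genes, compared with medians of 3123 to 4676.5 genes in the other 6 series, so detection shares of series 1 are given apart. Of 8 mesenchyme markers, Postn, Col3a1 and Col1a1 reached 10 CPM (10 counts per 1000000 counts of the cell) in 97.96%, 99.7% and 96.9% of cells. The rest did so in fewer: Sox9 in 85.4%, Lum in 83.7%, Pdgfra in 78.6%, Twist1 in 59.2% and Dcn in 58.2%. At least 3 of 9 cardiomyocyte markers reached this level in 5 cells, at least 3 of 7 glial markers in 16 cells, and at least 3 endothelial markers in 4 cells. No cell had 3 melanocyte markers, and Tyr was at 10 CPM in 0 cells (taking a count of 0 to leave room for 3 cells, or 1.02%). Of the 5 blood markers only Hbb-y was analysed, and it reached 10 CPM in 3 cells. No pair of cells had identical columns.

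The first question was whether each gene was graded, with most cells spread over a range, or on-off, with many cells at no reads and others at a high level. Acta2 (ENSMUSG00000035783.9, chromosome 19, 34241090 to 34255590, GRCm38) was the most spread. Its level ran from 0 to 20395 CPM, with a median of 141.4 CPM (95% interval 56.01 to 248.5). It had no read in 20.4% of cells, a read but under 10 CPM in 17.7%, 10 to 100 CPM in 9.18%, 100 to 1000 CPM in 26.5% and at least 1000 CPM in 26.2%. The band from 10 to 100 CPM was thus the least filled, with cells on either side of it. Without series 1 the median was 19.8 CPM (95% interval 4.08 to 108.7), and 8.05% of the other cells lay between 10 and 100 CPM, 47.5% below and 44.5% above.

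Tagln (chromosome 9, 45929619 to 45936058) and Myl9 (chromosome 2, 156775420 to 156781658) had a similar shape with fewer cells at the low end. Tagln ran from 0 to 11678 CPM with a median of 325 CPM, and 10.9% of cells lay between 10 and 100 CPM. Myl9 ran from 0 to 8223 CPM with a median of 359 CPM, and 9.52% of cells lay in that band. No read was found in 15.3% of cells for Tagln and in 17.0% for Myl9. A read but under 10 CPM was found in 7.14% of cells for Tagln and in 8.84% for Myl9. Their least filled band over all cells was therefore this one, and not that from 10 to 100 CPM as for Acta2. Their silent cells were also fewer than those of Acta2.

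The tropomyosins differed from each other. Tpm1 (chromosome 9, 67022590 to 67049406) had no read in 5.44% of cells and lay between 100 and 1000 CPM in 57.1%, with a median of 396 CPM and a maximum of 4582 CPM. Tpm2 (chromosome 4, 43514711 to 43523765) had no read in 16.7% of cells and lay between 100 and 1000 CPM in 51.02%, with a median of 181.8 CPM and a maximum of 4230 CPM. Tpm1 was thus graded in nearly all cells, while Tpm2 was graded where present and had no read in a further part of the cells. The reads of Tpm1 and Tpm2 cover many splice forms, and no isoform is resolved in a count per gene.

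The second light chain, Myl12a (chromosome 17, 70993656 to 71002878), was close to always on. It reached 1000 CPM in 61.6% of cells and had no read in 0.680%, with a median of 1217 CPM and a maximum of 6113 CPM. Among the cells that detected it, the middle 50% spanned a difference of 1.199 on the log2 scale, compared with 3.34 for Acta2, 2.91 for Tagln and 2.44 for Myl9. Myl12a shares 8553 bases of its GENCODE M21 gene model with the neighbouring Myl12b, a near-identical gene, so how reads were split between them is uncertain. Myl12b was detected in 96.9% of cells.

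The crosslinkers took opposite forms. Actn1 (chromosome 12, 80167547 to 80260371) was low and graded, with 40.8% of cells between 10 and 100 CPM and 0.680% at 1000 CPM or more. Its median was 52.1 CPM and its maximum 1299 CPM. Pls3 (chromosome X, 75785654 to 75875182) had no read in 31.3% of cells and 100 to 1000 CPM in 41.5%, with 11.2% in the band between 10 and 100. Of these crosslinkers Pls3 was thus the nearer to on-off and Actn1 the nearer to a continuous range, although 26.2% of cells had Actn1 below 10 CPM.

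Tm4sf1 (chromosome 3, 57285611 to 57301988) was the most on-off of the 9. It had no read in 54.4% of cells, 4.76% of cells lay between 10 and 100 CPM, and 35.4% reached 100 CPM. Its median over all cells was 0 and its maximum 7078 CPM. In the cells that detected it, its median was 423.9 CPM.

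**Figure D1:**
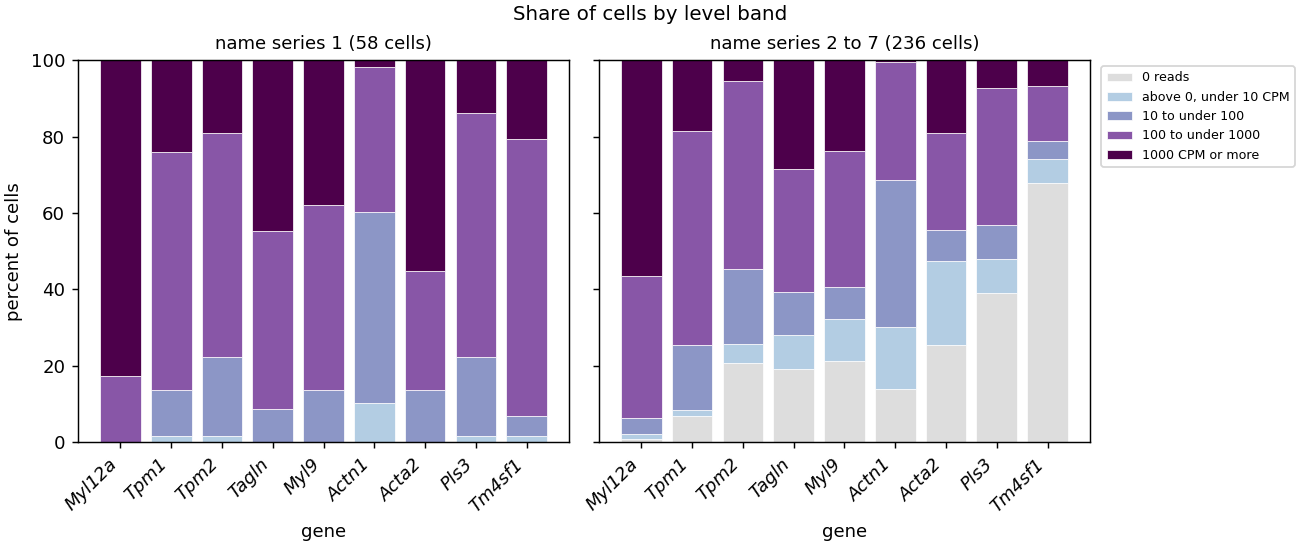
Percent of cells (vertical axis) in 5 level bands for each gene (horizontal axis, ordered by share of cells at 10 CPM or more), with series 1 on the left and series 2 to 7 on the right. In series 2 to 7, Tm4sf1 had no read in 67.8% of cells and Myl12a in 0.847%, and in series 1 no gene had a cell without a read.

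Levels of different genes can be set side by side only per length, so CPM was divided by the kilobases of all annotated exons of the gene (GENCODE M21). By the median over cells, Myl12a (362.3 RPKM, reads per kilobase per 1000000 reads) and Myl9 (308.7) were highest, followed by Tagln (163.5), Acta2 (64.4), Tpm2 (62.5) and Tpm1 (61.1). Pls3 (22.6), Actn1 (9.41) and Tm4sf1 (0) were lowest. This order rests in part on series 1: without it the median was 9.03 for Acta2, below Tpm1 (56.9) and Tpm2 (45.2), and 3.32 for Pls3, below Actn1 (8.34). By the mean, the order of the top changed to Myl9 (728.9), Acta2 (520.4), Tagln (489.5) and Myl12a (396). For Acta2 the mean was far above the median. All annotated exons of Tpm1 add up to 6485 bases, more than any 1 transcript holds, so its value per length is a low estimate.

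Next, the genes were followed across name series. In series 1 the lowest, median and highest Acta2 levels were 40.2, 1130 and 20395 CPM, and all 58 cells reached 10 CPM. In series 2 they were 0, 123.3 and 19921 CPM, in series 4 they were 0, 119.6 and 3573 CPM, and in series 7 they were 0, 97.8 and 4642 CPM. In series 5 they were 0, 61.4 and 4065 CPM, in series 3 they were 0, 0.924 and 4634 CPM, and in series 6 they were 0, 0.513 and 5843 CPM. Every series thus had a cell at 3573 CPM or more, the ranges overlapped, and the medians of series 3 and 6 lay under 1 CPM. The intervals of the medians overlapped among series 2 to 5 and 7, and that of series 1 (545 to 1687 CPM) lay above those of series 2 to 6 but overlapped that of series 7 (0.938 to 858 CPM).

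Tm4sf1 differed most between name series. It reached 10 CPM in 57 of 58 cells of series 1 (98.3%), 36 of 48 of series 2 and 11 of 38 of series 3 (28.9%). In series 4, 5, 6 and 7 it did so in 5, 1, 5 and 3 cells (13.2%, 2.94%, 14.7% and 6.82%). The 95% intervals of series 1 and 2 (90.8 to 99.96% and 60.4 to 86.4%) overlapped neither each other nor those of series 3 to 7, which reached at most 45.9%. With each cell thinned to 200000 reads, which left out 15 shallower cells, the shares were 98.1%, 79.1%, 28.6%, 13.5%, 3.03%, 17.6% and 6.98%. The number of genes detected still differed between name series, and its part in these shares was not tested.

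Pls3 followed part of that order. It was detected in 98.3%, 81.2%, 50.0% and 63.2% of series 1 to 4, and in 26.5%, 29.4% and 50.0% of series 5 to 7. Tagln ran differently, with its highest series medians in series 5 (951 CPM) and series 1 (839 CPM) and its lowest in series 3 (11.5 CPM). In series 5, 85.3% of cells detected Tagln and 82.4% detected Myl9, compared with 61.8% for Acta2, 26.5% for Pls3 and 2.94% for Tm4sf1. Series 6 had the lowest share for Acta2 (26.5%), Myl9 (50.0%), Tpm2 (44.1%), Actn1 (52.9%) and Myl12a (94.1%). Myl12a varied least, with series medians from 888 to 1580 CPM.

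**Figure D2:**
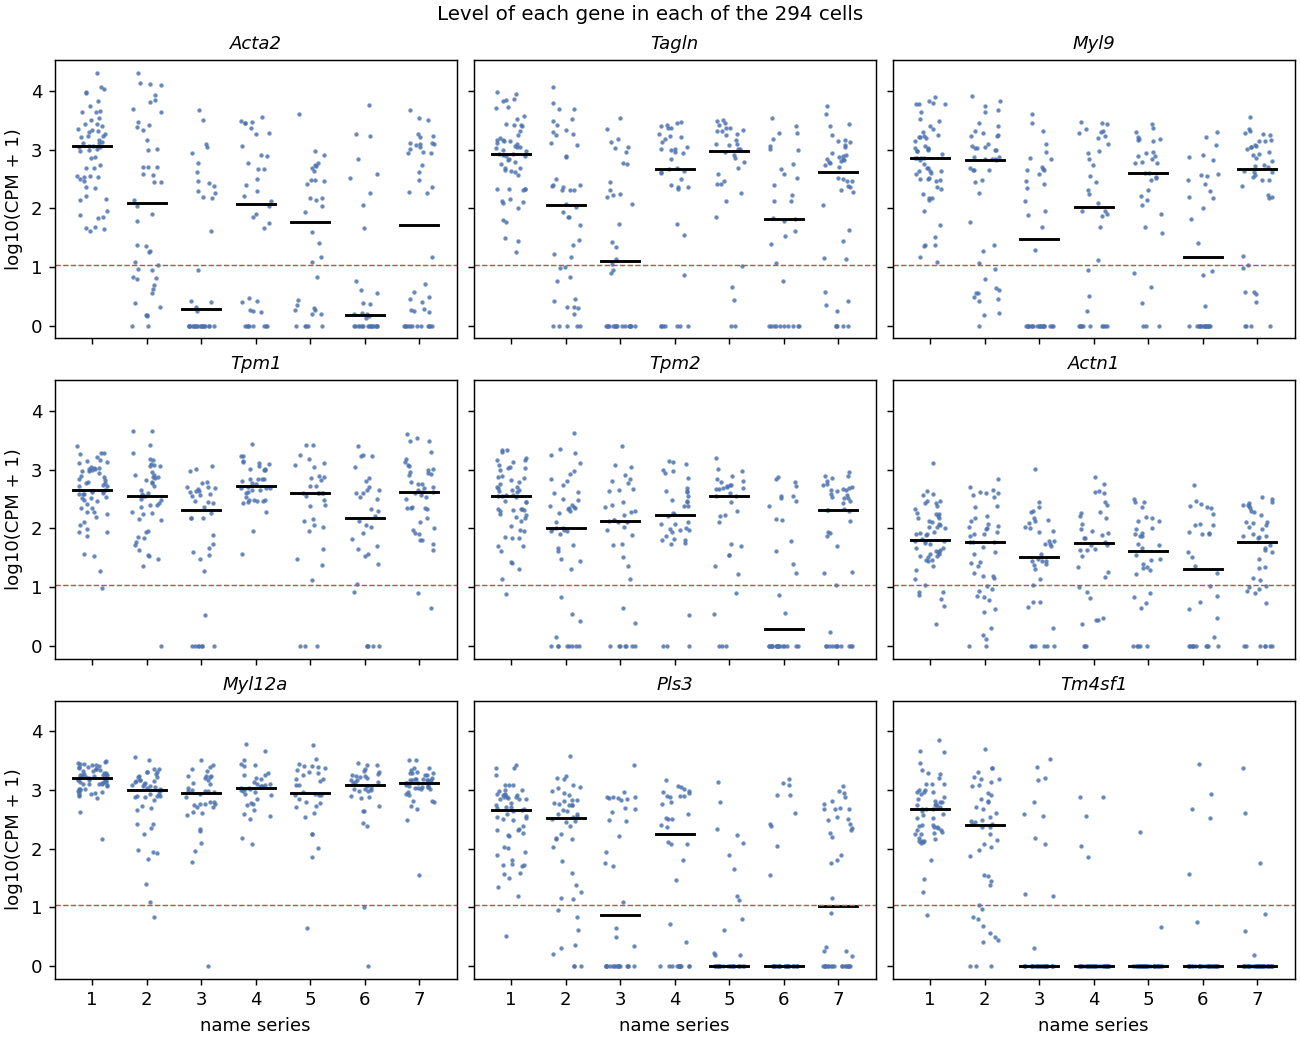
Level of each gene in every cell as log10(CPM + 1), by name series, with 1 point per cell, black bars for series medians and a dashed line at 10 CPM. Tm4sf1 has a median of 0 in series 3 to 7, while Myl12a has a median of at least 888 CPM in each series.

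The second question was the order in which the genes were detected among cells, with detection at 10 CPM or more. By share of all cells the order was Myl12a (98.3%), Tpm1 (92.9%), Tpm2 (78.9%), Tagln (77.6%), Myl9 (74.1%), Actn1 (73.8%), Acta2 (61.9%), Pls3 (61.2%) and Tm4sf1 (40.1%). Neighbours from Tpm2 to Actn1 had overlapping intervals (from 68.4 to 83.4% in all), as did Acta2 (56.1 to 67.5%) and Pls3 (55.4 to 66.8%). Myl12a had the highest share, alone or tied, in 7 of 7 name series, and Tm4sf1 had the lowest in 5. Acta2, the anchor, came late: Tagln and Myl9 each had a higher share than Acta2 in 6 of 7 series and the same share in series 1. Without series 1 the shares of Acta2, Pls3 and Tm4sf1 were 52.5%, 52.1% and 25.8%. An order among cells is not an order in time. The cut of 10 CPM took no account of length, and annotated exons ran from 1162 bases for Myl9 to 6485 for Tpm1. The part of length in this order was not tested.

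The order depended on the level required. At 1 read or more, Acta2 was found in 79.6% of cells, near Tpm2 (83.3%), Myl9 (82.99%) and Tagln (84.7%), since 17.7% of cells held Acta2 reads below 10 CPM. At 100 CPM, Actn1 came last with 32.99% of cells, behind Tm4sf1 (35.4%), Pls3 (50.0%) and Acta2 (52.7%). Myl12a (94.9%) and Tpm1 (76.9%) kept the first places at 100 CPM. Actn1 thus passed 10 CPM in more cells than Tm4sf1 did, and 100 CPM in slightly fewer.

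Cell by cell, Acta2 was rarely detected without Tagln, Myl9 or Tpm1. Among the cells of series 2 to 7, 48.3% detected both Acta2 and Tagln, while 56 cells had Tagln alone of the pair and 10 Acta2 alone. For Myl9 the share with both was also 48.3%, with 46 cells holding Myl9 alone and 10 Acta2 alone. For Tpm1, 51.3% held both, and 95 cells held Tpm1 alone and 3 Acta2 alone. Tpm2 without Acta2 was seen in 65 cells and Acta2 without Tpm2 in 14, and Actn1 without Acta2 in 64 and the reverse in 23. So cells with an actin signal but no transgelin, Myl9 or Tpm1 were few, and cells with these genes but no Acta2 were common.

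Pls3 and Tm4sf1 stood in a different relation to Acta2. In the same cells Pls3 was detected without Acta2 in 39 and Acta2 without Pls3 in 40, which gives no order. Tm4sf1 without Acta2 was seen in 14 cells and Acta2 without Tm4sf1 in 77. Both were detected in 47 cells. Counts of this kind follow in part from the shares of cells, which were 52.5% for Acta2, 52.1% for Pls3 and 25.8% for Tm4sf1. They also depend on each gene's level, since a low gene is missed more often.

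Per cell, a median of 7 of the 9 genes was detected (95% interval 7 to 8), and 6 without series 1. All 9 were found in 78 cells (26.5%), of which 48 were in series 1, and 1 cell had none. If genes always entered in 1 fixed order, each cell would hold the first genes of that order and no later one. For the order over all cells this held in 50.7% of cells (95% interval 44.8 to 56.5%). Cells with all 9 genes meet any order, and they made up 78 of these cells. In series 2 to 7 the share was 42.8%, with the order taken from those cells alone, in which Actn1 came before Myl9. Among the cells with fewer than 9 genes, the order over all cells held in 32.9% (71 cells, 95% interval 26.6 to 39.6%). It held in 0 of 29 such cells of series 2 (exact 95% interval 0 to 11.9%). Most incomplete cells therefore did not follow the order over all cells. A total of 83 different combinations occurred. The most common incomplete one lacked only Tm4sf1 (34 cells), followed by the one lacking Pls3 and Tm4sf1 (15 cells) and the one lacking Acta2, Pls3 and Tm4sf1 (9 cells).

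In the cells of series 2 to 7 with 4 or 5 of the genes, 60 of 61 held Myl12a, 59 Tpm1 and 41 Tpm2, but 6 held Acta2. In those with 6 or 7 genes, 60 of 69 held Tagln, 60 Myl9 and 45 Acta2, while 27 held Pls3. Where 8 were present, 42 of 43 held Acta2 and 10 held Tm4sf1. Pls3 did not follow a fixed place, being present in 21 of the 61 cells with 4 or 5 genes. The number of genes in a cell includes the gene being scored, so each gene's share rises with it in part by construction. With 8 of 9 present, only 1 gene can be missing. Myl12a and Tpm1 were thus present in almost all cells with 4 or 5 genes, and nothing is read from the rise of Acta2 with the number.

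**Figure D3:**
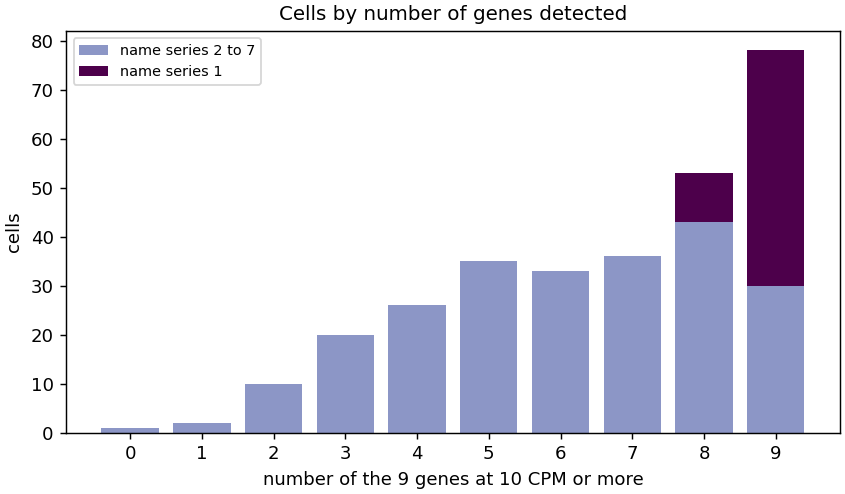
Number of cells (vertical axis) by how many of the 9 genes reached 10 CPM (horizontal axis), for series 1 and for series 2 to 7 stacked. Of the 78 cells with all 9 genes, 48 are from series 1, and series 1 has no cell with fewer than 8.

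The third question was how the genes varied together. Spearman's correlation of CPM was taken across the cells of each name series, over 34 to 58 cells, and summarised by the median of the 7 series. The cells of a series may share a chip, day or stage, and CPM values of a cell share its total. For the 8 pairs with Acta2, which the choice of genes fixed, the medians were 0.62 for Myl9, 0.54 for Tagln, 0.49 for Tpm1, 0.43 for Tpm2, 0.41 for Tm4sf1, 0.40 for Actn1, 0.40 for Pls3 and 0.39 for Myl12a. All 8 lay at 0.3 or more. Of the 8852 genes besides Acta2 detected in at least 10% of cells, with these 8 included, 0.712% did so. Nothing is read from that count. The correlation with Acta2 was positive in each of the 7 series for each of the 8 genes. It reached 0.3 in 7 series for Tagln, Myl9 and Tpm1, and in 5 series for Tpm2 and Myl12a.

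Some of these correlations varied widely between series. Acta2 with Myl12a was 0.057 in series 1 and 0.14 in series 2, and between 0.34 and 0.60 in the others. Acta2 with Tpm2 was 0.76 in series 1 and 0.20 in series 4. Acta2 with Pls3 was 0.64 in series 4 and 0.12 in series 6. Acta2 with Tm4sf1 lay between 0.34 and 0.52 in series 1 to 6 and at 0.15 in series 7, but in series 4 to 7 it rests on 1 to 5 cells with Tm4sf1 per series, and such sparse values are no finding. In the 2 series with at least 10 cells detecting both, Acta2 and Tm4sf1 had correlations of 0.45 and 0.49 among those cells.

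Of the 28 pairs without Acta2, the median correlation was 0.26 and 11 reached 0.3. Over all tested genes, 0.102% to 0.429% reached 0.3 with 1 of these 8 genes. All 8 were chosen for their correlation with Acta2, so their correlations with each other follow in part from that choice. Tagln and Myl9 were the closest pair of all (median 0.63, range 0.45 to 0.71 over the series). They were followed by Tagln with Tpm1 (0.52), Tagln with Actn1 (0.42), Myl9 with Tpm2 (0.42) and Myl9 with Tpm1 (0.39). At the low end were Actn1 with Myl12a (0.035, from -0.23 to 0.32), Myl12a with Pls3 (0.042) and Myl12a with Tm4sf1 (0.13). Among these 28 pairs, that of Myl12a with Pls3 was thus among the weakest, and those of Tagln with Myl9 and with Tpm1 the strongest. The value of Myl12a with Tm4sf1 rests in part on series 4 to 7, with 1 to 5 cells with Tm4sf1 each, and is no finding. In the 3 series with at least 10 cells detecting both, that pair had a median of 0.50 among those cells (0.15 to 0.78). The 2 tropomyosins were only loosely tied (0.23), with 0.63 in series 6 and 0.55 in series 1 but 0.072 in series 4.

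Each gene was then used as an anchor against the same 8852 genes. Since the genes were chosen for tracking Acta2, counts among them follow in part from that choice, each includes the pair with Acta2, and nothing is read from them. For Tagln, 7 of the 8 others reached 0.3, with 0.373% of all genes doing so, and for Myl9 6 did, with 0.418% of all genes. For Tpm1, Pls3, Tpm2 and Actn1 the counts were 4, 4, 3 and 3 of 8, beside 0.226%, 0.147%, 0.181% and 0.102% of all genes. For Tm4sf1 2 of 8 (0.429% of all genes) and for Myl12a 1 of 8 (0.407%) reached it. The median correlation over all genes lay between 0.012 and 0.056 for the 9 anchors. Outside the set, the gene closest to Myl12a was Actg1 (0.46), a cytoplasmic actin, and the gene closest to Actn1 was Ctgf (0.40). Myl12a thus stood nearer to a non-muscle actin than to any of the other 8 genes, of which Acta2 was closest at 0.39. The closest outside gene also exceeded the closest of the other 8 for Tagln (Myl6, 0.64 beside 0.63) and Tpm2 (Myl6, 0.46 beside 0.43). The same held for Tm4sf1 (Hspb2, 0.43 beside 0.41). Outside genes are far more numerous than 8, so nothing is read from this.

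**Figure D4:**
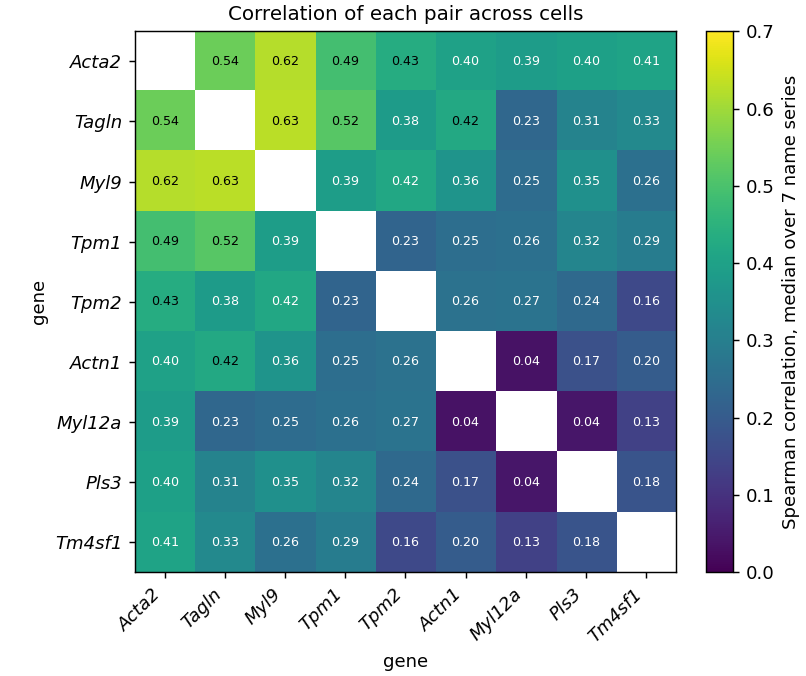
Spearman correlation across cells, median over the 7 name series, for each pair of the 9 genes (rows and columns, colour from 0 to 0.7). The block of Acta2, Tagln and Myl9 holds 0.54 to 0.63, and the row of Myl12a falls to 0.035 with Actn1.

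**Figure D5:**
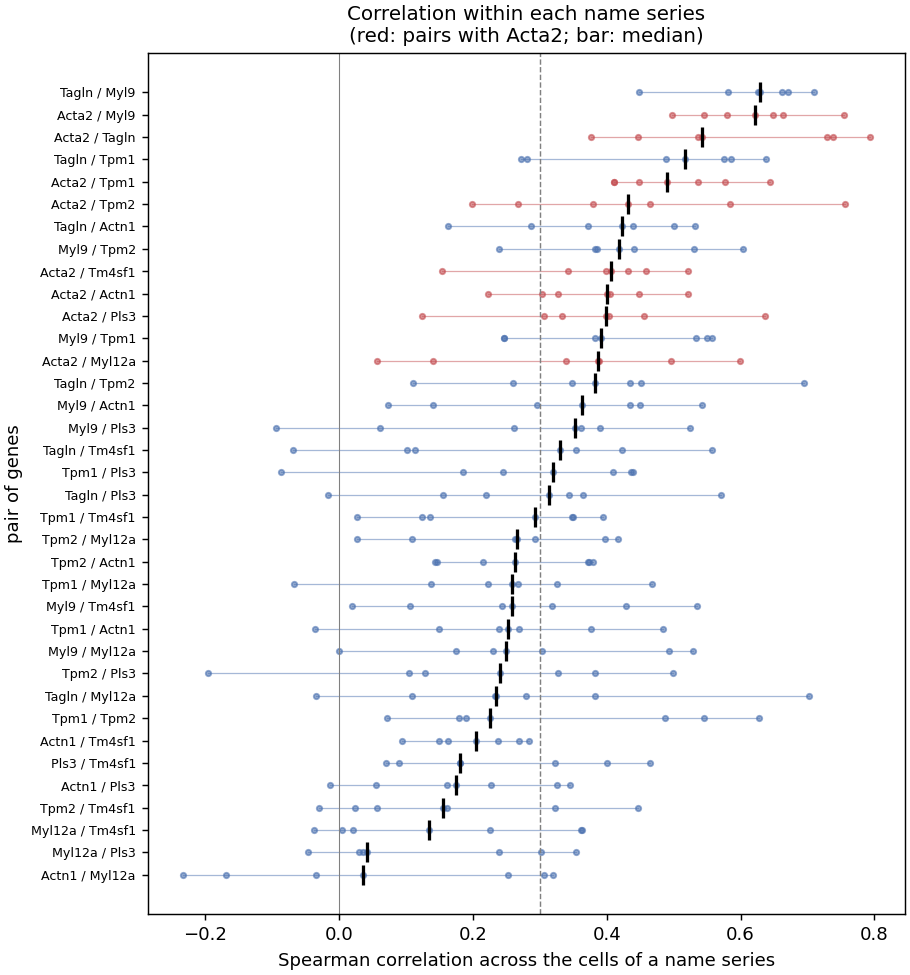
The same 36 pairs (vertical axis) with 1 point for each name series and a black bar at the median; the horizontal axis is Spearman's correlation, the dashed line marks 0.3, and red marks pairs with Acta2. The 8 red pairs have no point below 0, while Actn1 with Myl12a runs from -0.23 to 0.32.

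To see whether the correlation was only that of presence and absence, it was also taken among cells detecting both genes, in series with at least 10 such cells. Acta2 and Myl9 had a median of 0.64 (0.12 to 0.83 over 6 series), and Acta2 and Tagln 0.51 (-0.12 to 0.82 over 6 series). Tagln and Myl9 had 0.58 (0.36 to 0.89), Tagln and Tpm2 had 0.61 there beside 0.38 over all cells, and Myl9 and Tpm2 0.59 beside 0.42, over 7 series each. Acta2 with Tpm1 had 0.31, with Myl12a 0.26, with Tpm2 0.26 and with Actn1 0.22 among such cells, each lower than over all cells. Over all 36 pairs the median was 0.36 in cells detecting both, from 2 to 7 series per pair. Over all cells it was 0.32 in all 7 series, and 0.36 in series with at least 10 cells detecting each gene. The rise from 0.32 to 0.36 is therefore not read as an effect of leaving out undetected cells. The values with Acta2 describe pairs chosen for their correlation. For Tagln and Myl9 the correlation was positive in each of the 7 series among such cells, while for Tagln and Tpm2 it ran from -0.11 to 0.72.

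With Acta2 held constant by partial correlation, an analysis added after the values were seen, the median over the 28 other pairs was 0.080, beside 0.26 without that step. Tagln with Myl9 kept 0.44 and was the 1 pair still at 0.3 or more. Myl9 with Tpm2 had 0.25, Tagln with Tpm2 0.24 and Tagln with Actn1 0.21. Actn1 with Myl12a had -0.17. The genes were chosen for their correlation with Acta2, so a fall at this step follows in part from that choice. Nothing is read from its size. Reads of single cells also measure Acta2 with error, so this step does not fully hold its level constant.

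Depth moved with some of the genes. The median correlation over series with the cell's total count was 0.36 for Acta2, 0.34 for Myl12a, 0.25 for Pls3 and 0.25 for Tm4sf1, and 0.010 for Tagln. For Acta2 it ran from -0.26 in series 1 to 0.49 in series 7. With the number of genes detected, Tm4sf1 had 0.31, Actn1 0.28 and Acta2 0.23. Holding the number of detected genes constant left 15 of 36 pairs at 0.3 or more, compared with 19. Both counts follow in part from the choice of genes by their correlation with Acta2.

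Related genes of the actin machinery were followed by lists chosen with earlier results of these data known. Of 5 other actin genes, 4 were detected in at least 10% of cells, and 2 of them reached 0.3 with Acta2: Actg2, the enteric smooth muscle actin (0.46), and Actb, a cytoplasmic actin (0.33). Actg2 was detected in 72 cells (24.5%) and the cardiac actin Actc1 in 48 (16.3%), with a correlation of 0.17. The actin coding sequences are nearly alike, so reads may be assigned wrongly among Acta2, Actg2, Acta1 and Actc1, and how the counting split them is not known. Acta1, skeletal muscle actin, reached 10 CPM in 9 cells.

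Among 8 genes of other tropomyosins, calponins, transgelins and caldesmon, 3 reached 0.3 with Acta2. These were Cnn1, a smooth muscle calponin (0.55), Tpm4 (0.32) and Cald1, caldesmon (0.31). Tagln2, a paralog of Tagln, had 0.037 with Acta2 and 0.023 with Tagln, and Tpm3 had 0.023 with Acta2. Among 10 myosin II genes tested, the essential light chain Myl6 (0.46), myosin light chain kinase Mylk (0.40) and the non-muscle heavy chain Myh9 (0.33) reached 0.3. Myl12b had -0.005 with Acta2, compared with 0.39 for its neighbour Myl12a, while the 2 correlated with each other at 0.34.

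Of 14 crosslinkers and adhesion genes tested, 1 reached 0.3 with Acta2, Flna (filamin A, 0.38). Their median was 0.19, compared with 0.045 over all 8852 genes. Actn4, the other widely expressed alpha-actinin, had 0.089 with Acta2 and 0.093 with Actn1. Of 5 late smooth muscle genes, Synpo2 reached 0.3 (0.39), with Lmod1 just under it (0.295) and Des at 0.003. None of the 5 genes for SRF and its cofactors did, and Myocd, myocardin, came closest (0.29) with detection in 32 cells. Genes of the lists that reached 0.3 were named for that, after their values were seen, and the shares stand beside 0.712% of all genes, and each list was small.

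The genes whose pattern was most like that of the 9, by the mean over the 9 of the median correlation, were Myl6 (0.37), Cnn1 (0.35), Actg2 (0.34), Lmod1 (0.29) and Ctgf (0.29), among 8844 genes outside the set. The median over those genes was 0.031 and their 99th percentile 0.18. Myl6 was detected in 100% of cells, Lmod1 in 15.3% and Ctgf, a secreted matrix protein, in 66.7%. At the other end of the same scale stood Vcan, versican of the cardiac cushion matrix (-0.22), Lum, lumican (-0.18), Col9a3 (-0.17), Pdgfra (-0.16) and Shisa2 (-0.16), which were named after their values were seen. Of the 8 mesenchyme markers, 6 had a negative mean, among them Sox9 (-0.14), Twist1 (-0.13), Dcn (-0.12) and Col3a1 (-0.10). Postn (0.069) and Col1a1 (0.072) were positive. Of the 9 cardiomyocyte markers, the 2 detected in at least 10% of cells, Tnnt2 (0.14) and Actc1 (0.16), had positive means, and their part in the correlations above was not tested. Most of these correlations are weak.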

How the data were processed

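RNA of 294 single cells was measured with Fluidigm C1 capture and SMARTer v4 full-length cDNA, and libraries were made with Nextera XT, per the labels' protocols. The authors deposited raw read counts per gene (15124 genes), with no molecular identifiers named, and a second table named SCT, treated here as a normalised score rounded by the authors to whole numbers and deposited for the same cells. The submitters' processing notes name HISAT2 2.1.0, featureCounts, Seurat and mm10 (the assembly GRCm38), without settings. Whether counting used strand is not given in the sources used here. Tagln shares 108 bases with Pcsk7 on the opposite strand, and Actn1 and Myl12a also overlap other genes.

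Columns were matched to cells by name, and all 294 cells form 1 group, so no test was run. Counts were scaled to CPM over the cell's total (34046 to 3033857 reads), and detection means 10 CPM unless stated. Spearman's correlation was taken within each name series and summarised by the median over 7 series, for genes at 10 CPM in at least 10% of cells. Intervals cover counting error only, and reads are not independent molecules. Functions were tested on simulated data with known correlations. Python 3.11.15, numpy 2.4.6, pandas 2.3.3 and scipy 1.17.1 were used. The text names the 9 genes, all pairs with Acta2, the 5 highest and 3 lowest other pairs, the 5 most alike genes and up to 4 genes per list, with other names chosen after values were seen. Members and lists were chosen with earlier results of these data known. Alternatives changed the detection level, total, table, depth, strata, covariates and cells.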

Additional observations from a re-analysis of the deposited data

How the results depend on the processing

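The median pair correlation (0.32) lay between 0.26 and 0.36 and the number of pairs at 0.3 or more (19) between 15 and 23 under the 16 alternatives run for each, which kept both within the spread over name series or within 1.5 times. The count of genes at 0.3 or more with Acta2 (63) was 582 with all cells as 1 stratum and 34 given the number of genes detected, and stayed within 1.5 times under 14 others. Detection moved with its threshold by construction. The median share over the 9 genes (74.1%) was 83.3% at 1 read and 59.2% at 100 CPM, genes per cell (7) were 5 at 100 CPM, and the nested share (50.7%) was 63.9% at 1 read and 33.7% at 100 CPM. Without name series 1, genes per cell were 6 and the nested share 42.8%. Each alternative nested share used the order of its own cells and level. Without name series 3, the median share of cells with no read was 12.5% instead of 16.7%. The cause of the changes with name series and strata was not tested. Single genes' shares left their interval for 5 of 9 genes without series 1 and for 0 in the second deposited table, after thinning or in cells with 500000 reads or more. The restriction to series with 10 cells detecting each gene and the partial correlation given Acta2 were chosen after seeing the data. No paired analysis was possible because there is 1 group and no test. Depth limits low values: in a cell of 34046 reads, 1 read exceeds 10 CPM.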

Other observations

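Most of the 16 cells with at least 3 of 7 glial markers at 10 CPM also held contractile genes, as did most cells of the whole group. Acta2 reached 10 CPM in 11 of them (68.8%, exact 95% interval 41.3 to 88.98%), at 0 to 2895 CPM, with a median of 62.4 CPM. Its share over all cells was 61.9%. Myl9 reached 10 CPM in 14 (87.5%, beside 74.1% of all cells) and Tm4sf1 in 14 (beside 40.1%). Pls3 did so in 15 (beside 61.2%) and Tpm1 in 16 (beside 92.9%). Tagln and Tpm2 did so in 13 each (81.25%, beside 77.6% and 78.9%). Actn1 (9 cells, 56.25%, beside 73.8%) and Myl12a (15 cells, 93.75%, beside 98.3%) had lower shares than over all cells. Name series was not taken into account here. The median total of the 16 cells was 1310004.5 reads, compared with 1204543 over all cells. The labels state that capture sites were photographed for single cells, and no doublet caller was run.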
